A study of Mus musculus with 6 samples.

Results

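YAP and TAZ are transcriptional coactivators that bind TEAD proteins on DNA, and the kinases Lats1 and Lats2 of the Hippo pathway restrain them by phosphorylation. When the kinases are lost, YAP and TAZ can enter the nucleus and switch on target genes, but much of what is called a canonical target was learned in epithelial, mesenchymal or cancer cells. The 10 genes described here are such targets that showed little or no rise in embryonic mouse cortex without Lats1 and Lats2: Ankrd1, Axl, Igfbp3, Crim1, Myof, Nt5e, Dock5, Foxf2, Rbms3 and Arhgef17. They were chosen by name from targets known in other tissues and by their small response in these same arrays. All 10 were on the array, among 22180 genes with a row of their own, and each had 1 such row. Because the response chose the genes, their differences between genotypes are given as a description and carry no test.

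Total RNA came from dissected cortex of 6 mouse embryos at E12.5, each sample from a separate embryo per the labels. There were 3 embryos labelled control, whose alleles and Cre status the labels do not give, and 3 embryos labelled Lats1F/F;Lats2F/F;Nestin-Cre, a double knock-out abbreviated DKO. The Nestin promoter element drives Cre in neural progenitors, and the deletion passes to their descendants. Blood vessels, meninges and microglia arise largely from other lineages, and their RNA can be part of the same dissection. A single Affymetrix whole-transcript array was used per embryo, and all values are log2 signals. Signals of different rows cannot be set against each other, so each gene is compared only with itself.

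Across the whole table, 228 of 16724 tested genes rose in DKO cortex and 60 fell (limma, Benjamini-Hochberg adjusted p under 0.05), which is 1.36% and 0.359%. With 1 array removed, 122 to 140 rose, or 260 where that array was DKO 2, and the count that fell was 11 without control 1, 13 without control 3, 14 without DKO 1, 14 without DKO 3, 53 without control 2 and 55 without DKO 2. Array medians lay between 5.94 and 5.97, and 3 embryos a group limit the precision of every value. Lats1 fell by 0.91 ± 0.14 (SE) on the log2 scale (limma adjusted p 0.0189). The Lats1 call did not hold when control 1 (adjusted p 0.0805), control 3 (0.0570), DKO 1 (0.0864) or DKO 3 (0.0814) was removed. Lats2 was not lower in DKO cortex (difference 0.24 ± 0.10 SE, limma adjusted p 0.285). Its probe positions and the deleted exons are not given in the sources used here. The Lats2 signal thus did not show the loss named in the label, and why it was not lower was not tested. Markers of the labelled tissue were present, with signals of 7.65 or more in control arrays for the dorsal cortical factors Emx1, Emx2, Lhx2, Pax6, Eomes and Tbr1.

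The 10 genes all differed by less than 0.2 on the log2 scale, and 86% of the tested genes did too. The differences, DKO minus control, ran from -0.17 for Foxf2 to 0.18 for Myof, or from 1.12-fold lower to 1.14-fold higher. The mean was higher in DKO for 9 of the 10 and lower for Foxf2. Without Ankrd1, too dim to test, it was higher for 8 of 9, beside 39.8% of all tested genes. Every DKO array had a lower median (5.940 to 5.957) than every control array (5.961 to 5.973). The response chose the 10 genes, so these counts are a description only. Small as they were, the differences of Myof, Arhgef17 and Crim1 exceeded those of 93%, 91.7% and 90.7% of all tested genes. The other tested members with a higher mean lay between 69% (Axl) and 86.3% (Nt5e), and Foxf2 at 11.6%. Their median difference was 0.09, beside a median of -0.03 over all genes tested. Of the 10 genes, 9 were bright enough to enter the fit over all genes. The choice of the genes by their small response bears on how many could pass a threshold, so no such count is given. Arhgef17 was the only 1 of the 10 with every DKO array above every control array, an order that 8.22% of all tested genes showed.

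**Figure D1:**
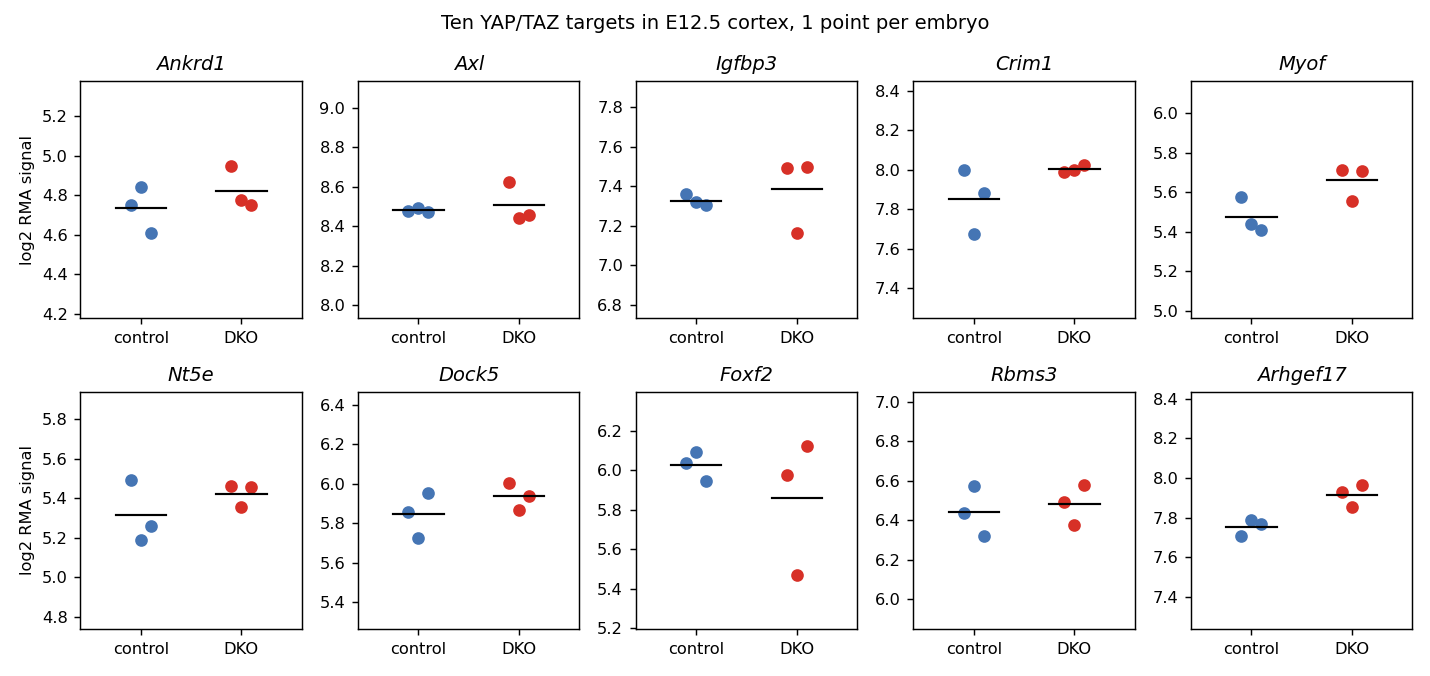
Log2 RMA signal (vertical axis, the same span of 1.2 units in each panel) of the 10 genes in 3 control (blue) and 3 DKO (red) embryos, 1 point per embryo, with black bars for the group means. The groups overlap in every panel but that of Arhgef17, and the DKO array at 5.47 in the Foxf2 panel stands apart from the others.

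The upstream sequences of some of these genes are shown first because they hold the letters that TEAD proteins are known to bind. The 6-base core GGAATG, or its reverse complement CATTCC, was searched on both strands of RefSeq windows (build GRCm38.p6) from 250 bases before to 50 bases after a transcript start. Windows were at hand for 8 of the 10 genes, and 3 of these genes held the core: Ankrd1, Axl and Crim1. Of all 27025 genes with a window, 16.58% held it. The stretches below stop where any annotated transcript of the gene begins, run 5′ to 3′ on the gene's strand, and have the TEAD core in capitals. The Ankrd1 stretch is chr19:36119845-36120094 (minus strand), that of Axl chr7:25788925-25788983 (minus strand) and that of Crim1 chr17:78199998-78200232 (plus strand). For comparison, Ccn1 (chr3:145649986-145650235, minus strand) and Ptpn14 (chr1:189728018-189728215, plus strand) are targets that did rise.
Ankrd1: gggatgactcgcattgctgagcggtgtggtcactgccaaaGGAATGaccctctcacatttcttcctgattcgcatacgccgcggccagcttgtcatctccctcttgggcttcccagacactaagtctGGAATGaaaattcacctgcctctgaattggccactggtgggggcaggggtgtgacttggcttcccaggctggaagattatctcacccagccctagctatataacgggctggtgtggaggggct
Axl: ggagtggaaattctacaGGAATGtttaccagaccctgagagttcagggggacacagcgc
Crim1: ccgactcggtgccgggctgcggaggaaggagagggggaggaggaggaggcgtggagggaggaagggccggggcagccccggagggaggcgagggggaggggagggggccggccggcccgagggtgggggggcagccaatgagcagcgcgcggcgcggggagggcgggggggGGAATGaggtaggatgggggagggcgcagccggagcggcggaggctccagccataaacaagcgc
Ccn1: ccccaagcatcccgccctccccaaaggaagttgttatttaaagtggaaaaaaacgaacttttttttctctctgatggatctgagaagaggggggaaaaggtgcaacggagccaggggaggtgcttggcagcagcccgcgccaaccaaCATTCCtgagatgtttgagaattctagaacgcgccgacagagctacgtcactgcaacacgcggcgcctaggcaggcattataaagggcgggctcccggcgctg
Ptpn14: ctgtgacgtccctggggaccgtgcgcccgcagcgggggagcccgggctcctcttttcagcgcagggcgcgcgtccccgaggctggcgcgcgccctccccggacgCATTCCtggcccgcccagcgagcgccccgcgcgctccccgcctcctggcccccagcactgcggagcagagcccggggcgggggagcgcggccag

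Ankrd1 held the core 2 times, with first bases 210 and 123 bases before the start, and Ccn1 held it once, 103 bases before it. Ankrd1, Axl and Crim1 have it as GGAATG on the gene's strand, and Ccn1 and Ptpn14 as CATTCC. In Axl it begins 42 bases and in Crim1 64 bases before the earliest annotated transcript, where the stretches shown end. The signals of Axl and Crim1 differed between the genotypes by 0.03 and 0.15, and that of Ccn1 by 1.91, while Ankrd1 was too dim to be read this way. Igfbp3, Myof, Nt5e, Foxf2 and Rbms3 did not hold these letters in their windows, which cover only a small part of the sequence that can regulate a gene. Among 7 other signature genes with a window the core was found in 4, Amotl2, Ccn1, Lats2 and Ptpn14. The AP-1 motif TGANTCA, bound by Fos and Jun proteins that often work beside TEAD, was in the windows of 0 of the 8 genes and of 8.97% of all 27025 genes. In F3, another target that rose, it occurred 2 times. A match of letters is a description and does not show that a protein binds there.

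Ankrd1 encodes a nuclear ankyrin-repeat protein of heart and stretched muscle and is among the targets most often used to read YAP activity in cultured cells. Its signal was 4.75, 4.84 and 4.61 in control embryos 1 to 3 and 4.95, 4.77 and 4.75 in DKO embryos 1 to 3. All 6 values lay under the limit used for dim genes (5.02), so Ankrd1 was not shown to be above background and was left out of the fit over tested genes. The difference was 0.09 ± 0.09 (SE, from a fit with dim genes kept), and the groups overlapped. It was 0.03 without control 3, 0.03 without DKO 1 and 0.14 without control 2.

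Among the genes for secreted and membrane proteins, Axl was the steadiest between control embryos. Axl is a receptor tyrosine kinase of the TAM family that binds the ligand Gas6. It stood at 8.47, 8.49 and 8.47 in control and at 8.63, 8.44 and 8.45 in DKO cortex. The DKO values lay on both sides of the control values, and DKO 1 alone stood above them. The difference was 0.03 ± 0.07 (SE), and it was -0.03 without DKO 1, 0.06 without DKO 2 and 0.06 without DKO 3.

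Igfbp3, a secreted carrier of insulin-like growth factors, was at 7.36, 7.32 and 7.30 in control embryos. In DKO embryos it was at 7.50, 7.17 and 7.50, so that 2 arrays lay above and 1 below all controls. The SD was 0.03 in control and 0.19 in DKO (n = 3 each), and the difference was 0.06 ± 0.09 (SE). The difference was 0.17 without DKO 2, 0.0048 without DKO 1 and 0.0028 without DKO 3.

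Crim1, a membrane protein with cysteine-rich repeats that can bind bone morphogenetic proteins, showed the opposite spread. Its control values were 8.001, 7.674 and 7.882 and its DKO values 7.988, 7.997 and 8.024. The DKO arrays lay within 0.04 of each other, at the level of the highest control array. The difference was 0.15 ± 0.09 (SE), and it was 0.06 without control 2, the lowest array.

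Myof encodes myoferlin, a membrane protein of the ferlin family involved in vesicle fusion and membrane repair, and had the largest difference of the 10 genes. It was at 5.58, 5.44 and 5.41 in control and at 5.72, 5.56 and 5.71 in DKO cortex. Only DKO 2 lay below the highest control array. The difference was 0.18 ± 0.07 (SE), a 1.14-fold higher signal.

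Nt5e encodes the ectoenzyme CD73, which makes adenosine from AMP outside the cell. It was at 5.49, 5.19 and 5.26 in control and at 5.46, 5.35 and 5.46 in DKO cortex, and control 1 was the highest of all 6 arrays. The difference was 0.11 ± 0.09 (SE), with 0.20 without control 1 and 0.05 without control 2. Both Myof and Nt5e stood less than 0.8 above the limit for dim genes in every array.

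The set holds genes for a pair of activators of small GTPases. Dock5, an exchange factor for Rac, was at 5.858, 5.725 and 5.951 in control and at 6.004, 5.865 and 5.937 in DKO cortex, with a difference of 0.09 ± 0.08 (SE). Its values interleaved between the groups, and the difference was 0.03 without control 2, 0.06 without DKO 1 and 0.14 without control 3. Arhgef17, another exchange factor, was at 7.71, 7.79 and 7.77 in control and at 7.93, 7.85 and 7.97 in DKO cortex. Every DKO array lay above every control array, by 0.07 at the closest point, and the difference was 0.16 ± 0.06 (SE), or 1.12-fold. It stayed between 0.14 and 0.19 when any 1 array was left out.

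Rbms3 encodes an RNA-binding protein. It was at 6.44, 6.57 and 6.32 in control and at 6.49, 6.38 and 6.58 in DKO cortex, and the groups covered nearly the same range. The difference was 0.04 ± 0.08 (SE), and it was -0.02 without control 3, -0.0095 without DKO 3, 0.10 without control 2 and 0.09 without DKO 2.

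Foxf2 was the only 1 of the 10 with a lower mean in DKO cortex. It encodes a forkhead transcription factor of mesenchyme that is known in brain from pericytes, the cells wrapped around small vessels. It was at 6.04, 6.09 and 5.95 in control and at 5.98, 5.47 and 6.12 in DKO cortex. DKO 2 lay below all other arrays, while DKO 3 was the highest of the 6. The difference was -0.17 ± 0.15 (SE) with all arrays and 0.03 without DKO 2.

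The array that was low for Foxf2 was also low for markers of vessels and meninges. Of 7 pericyte markers, 6 were lowest of all 6 arrays in DKO 2, as were 10 of 10 endothelial, 9 of 10 meningeal and 8 of 10 microglia and macrophage markers. The share of all genes with that order is not given here. Among the 3 DKO arrays alone, DKO 2 was lowest for 6, 10, 10 and 9 markers of these lists, beside 42.9% of all tested genes. The log2 of the summed pericyte signal was 10.12 to 10.24 in control arrays and 9.81 in DKO 2, beside 10.16 in DKO 1 and 10.06 in DKO 3. For endothelium it was 11.01 to 11.19 in control arrays and 10.44 in DKO 2. For meninges it was 11.08 to 11.43 in control arrays, 10.76 in DKO 2, 11.53 in DKO 1 and 11.20 in DKO 3. For microglia and macrophages it was 10.07 to 10.15 in control arrays and 9.78 in DKO 2. In bulk tissue, fewer cells of a type and less RNA per cell cannot be told apart. None of these lists had a member past the limma threshold (0 of 10 endothelial, 7 pericyte, 10 meningeal and 9 tested microglia markers), beside 1.72% of all tested genes called in either direction. Their counts at an unadjusted p under 0.05 were 2, 1, 0 and 1. Without a share of all genes at that threshold, these counts show neither an excess nor a lack. Every DKO array lay below every control array for 2, 2, 0 and 1 of their tested markers, beside 13.4% of all tested genes. Their part in the Foxf2 values was not tested.

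**Figure D2:**
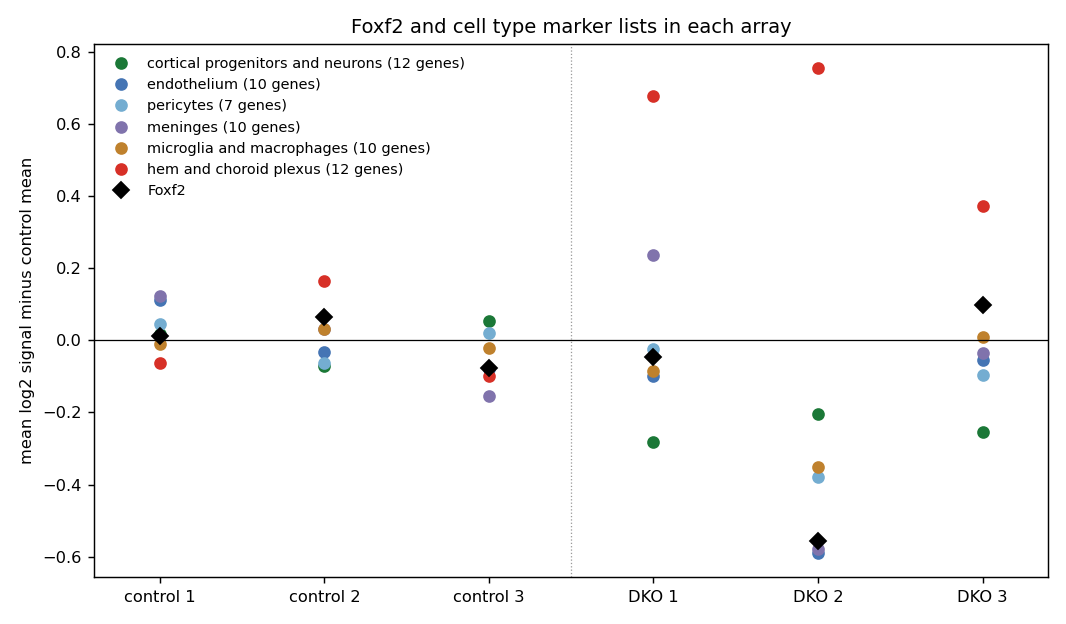
Log2 signal of Foxf2 (black diamonds) and the mean log2 signal of 6 cell type marker lists (coloured points) in each of the 6 arrays, each minus its own mean over the 3 control arrays. In DKO 2 Foxf2 and the endothelial, pericyte, meningeal and microglia lists lie below 0, at -0.56 for Foxf2 and from -0.35 to -0.59 for those lists.

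DKO 2 was the lowest of the 3 DKO arrays for 8 of the 10 genes, and the highest for 0. Over all tested genes it was the lowest DKO array for 42.9%. The median difference of the 10 genes was 0.14 without DKO 2 and 0.05 without DKO 1, against 0.09 with all arrays. Of 12 tested markers of the hem and choroid plexus, the dorsal midline next to cortex, 9 did not pass and 3 rose, beside 1.36% of all tested genes that rose: Ttr by 2.24 ± 0.41 (SE, limma adjusted p 0.0371), Lmx1a by 0.47 ± 0.06 (0.00982) and Bmp6 by 0.63 ± 0.12 (0.0391). Ttr missed the threshold when control 1, control 2, control 3 or DKO 1 was removed (adjusted p 0.0745 to 0.140), Lmx1a when control 1, control 3 or DKO 1 was removed (0.0506 to 0.0581), and Bmp6 when any array but DKO 2 was removed (0.0780 to 0.146). The log2 of the summed signal of that list was 9.97 to 10.26 in control and 10.49 to 11.37 in DKO arrays. Every DKO array lay above every control array for 7 of the 12 markers in the list, beside 8.22% of all tested genes. Its part in the values of the 10 genes was not tested. Of 12 tested cortical progenitor and neuron markers, 1 fell (Hes5, by 0.90 ± 0.09 SE, limma adjusted p 0.00197) and 0 rose, beside 0.359% and 1.36% of all tested genes. A second, dimmer row of Hes5 differed by -0.29, and the mean of both rows by -0.59. The list had a summed log2 signal of 13.57 to 13.66 in control and 13.39 to 13.46 in DKO arrays. Every DKO array lay below every control array for 9 of these 12 markers, Hes5 among them, beside 13.4% of all tested genes. For 1, Nes, every DKO array lay above every control array, beside 8.22% of all tested genes.

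All 10 genes belong to a 22-gene list of YAP and TAZ targets built from cancer cells. The other 12 genes of that list show how targets responded in the same arrays. Of these, 11 had a row of their own, 7 rose, 0 fell and 4 did not pass, beside 1.36% of all tested genes that rose. Lats2, 1 of the 4, was itself a target of the deletion, so loss and response cannot be told apart in its signal. It is kept in the counts and medians given here. Gadd45a, the twelfth, shared its row with another gene and was left out. The 11 genes had a median difference of 0.72. Since the list was parted by response, this contrast with the 10 genes is no independent result. Over the 20 tested genes of the whole list, 7 rose and 0 fell, and the median difference was 0.16 beside -0.03 over all genes tested.

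Ccn1, which encodes a matricellular protein, was at 7.65, 7.79 and 8.01 in control and at 9.88, 9.55 and 9.76 in DKO cortex, a rise of 1.91 ± 0.11 (SE, limma adjusted p 2.53e-04). Its relative Ccn2 rose by 1.71 ± 0.11 (SE, limma adjusted p 2.76e-04) in the row used, while a second, dimmer row of Ccn2 differed by 0.10. Ptpn14, a phosphatase that binds YAP, rose by 1.59 ± 0.09 (SE), and F3, which encodes tissue factor, by 1.45 ± 0.09 (SE), both with a limma adjusted p of 2.53e-04. Tgfb2, a growth factor, rose by 1.06 ± 0.13 (SE), and Amotl2, an angiomotin that holds YAP in the cytoplasm, by 0.72 ± 0.09 (SE), with limma adjusted p of 0.00574 and 0.00576. Nuak2, a kinase, rose by 0.42 ± 0.07 (SE, limma adjusted p 0.0271). Its call did not hold when control 1 (adjusted p 0.127), control 2 (0.0755), control 3 (0.0651), DKO 1 (0.102) or DKO 3 (0.0972) was removed. The smallest of these 7 rises, that of Nuak2, was 0.42, and the largest difference among the 10 genes was 0.18. That gap follows from parting the genes by response and is no result. Lats2 of the same list, which did not pass, lay within it at 0.24.

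Besides Lats2, given above, the other 3 genes of the list that did not pass lay within the range of the 10. Asap1, a regulator of Arf GTPases, differed by 0.08 ± 0.07 (SE), Fjx1, the mouse relative of the Drosophila gene four-jointed, by -0.0050 ± 0.06, and Ccdc80, a secreted matrix protein, by -0.05 ± 0.07. Their limma adjusted p values were 0.636, 0.978 and 0.784. A miss of the threshold does not show that these genes did not respond.

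**Figure D3:**
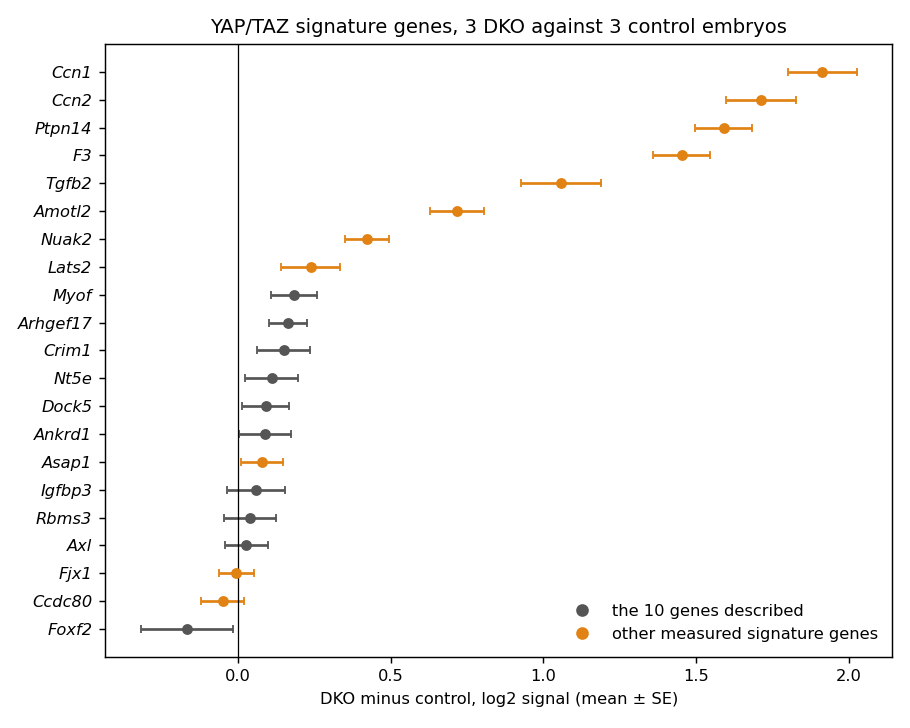
Difference between 3 DKO and 3 control embryos in log2 signal (horizontal axis, points with bars of ± 1 SE) for the 21 measured genes of the 22-gene list, with the 10 genes described in grey and the others in orange. The orange points reach from -0.05 (Ccdc80) to 1.91 (Ccn1), while the grey points lie between -0.17 and 0.18.

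The coactivators and their DNA-binding partners were present in the same tissue. Yap1 was nearly equal in both genotypes (difference 0.01 ± 0.07 SE, limma adjusted p 0.966), and Wwtr1, which encodes TAZ, differed by 0.27 ± 0.06 (SE, limma adjusted p 0.0779). Of 23 measured Hippo regulators and TEAD partners, 7 rose, 1 fell (Lats1) and 15 did not pass, with a median difference of 0.12, beside 1.36% of all tested genes that rose, 0.359% that fell and a median of -0.03 over all of them. The regulators that rose were Ajuba, a LIM protein that inhibits Lats kinases, by 1.54 ± 0.11 (SE), and the scaffold genes Wwc2 by 1.19 ± 0.08 and Wwc1 by 0.85 ± 0.08. Tead3 rose by 0.61 ± 0.07 (SE, limma adjusted p 0.00292). Tead1 by 0.45 ± 0.07 (SE, limma adjusted p 0.0193) and Tead4 by 0.36 ± 0.06 (0.0258) complete the TEAD genes that rose and were named after their values were seen. Tead2, also named after its values were seen, did not pass (difference -0.08 ± 0.06 SE, limma adjusted p 0.542). Every DKO array of Tead2 lay below every control array. Tead1 missed the threshold when any array but DKO 2 was removed (adjusted p 0.0691 to 0.0908), and Tead4 when any array but control 2 was removed (0.0531 to 0.135). Vgll3, a cofactor that binds TEAD proteins in place of YAP, was at 5.93, 5.93 and 5.83 in control and at 7.43, 6.84 and 7.77 in DKO cortex. It rose by 1.45 ± 0.20 (SE, limma adjusted p 0.00859), a call lost without control 3 (adjusted p 0.0527) and without DKO 1 (0.0555). The count of genes that rose in this list was 4 without control 3 and 4 without DKO 1.

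Relatives and working partners of the 10 genes were not used to choose them and were tested. Their list was drawn up with earlier results of these data known, so its counts are no independent result. Of 48 with a row, 46 were bright enough to test, 3 rose, 0 fell and 43 did not pass, beside 1.36% of all tested genes that rose. At an unadjusted p under 0.05 the count was 8 in either direction, and the share of all genes at that threshold is not given here. Every DKO array lay above every control array for 6 of the 46 and below for 3, beside 8.22% and 13.4% of all tested genes. The median difference was -0.01, near that of all genes. The 3 that rose, Gas6, Rbms1 and Igfbp2, stand beside Axl, Rbms3 and Igfbp3. The count was 1 without control 1, 1 without control 3 and 1 without DKO 3.

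Gas6, the ligand of Axl, was at 7.16, 7.15 and 7.03 in control and at 8.04, 7.72 and 8.15 in DKO cortex. It rose by 0.86 ± 0.11 (SE, limma adjusted p 0.00598), a 1.81-fold higher signal, and passed the threshold with any 1 array removed. The receptor Axl differed by 0.03 in the same arrays. The other TAM receptors were tested too, and Tyro3 differed by -0.16 ± 0.09 (SE, limma adjusted p 0.445) and Mertk by -0.02 ± 0.09 (0.962). Pros1, the second TAM ligand, differed by 0.15 ± 0.12 (SE, limma adjusted p 0.611).

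Rbms1, the RNA-binding relative of Rbms3, was at 6.49, 6.63 and 6.52 in control and at 7.34, 7.01 and 7.26 in DKO cortex. All DKO arrays lay above all controls, and the rise was 0.66 ± 0.09 (SE, limma adjusted p 0.0109). The call was lost without control 1 (adjusted p 0.0552), control 3 (0.0594) and DKO 3 (0.0595). Rbms2, the third gene of that family, differed by 0.03 ± 0.06 (SE, limma adjusted p 0.873).

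Igfbp2, which like Igfbp3 encodes a secreted carrier of insulin-like growth factors, was at 9.25, 9.29 and 9.15 in control and at 10.05, 9.64 and 9.90 in DKO cortex. The groups did not overlap, and the rise was 0.63 ± 0.10 (SE, limma adjusted p 0.0230). The Igfbp2 call did not hold when control 1 (adjusted p 0.0866), control 2 (0.0594), control 3 (0.0997), DKO 1 (0.0712) or DKO 3 (0.0875) was removed. Igfbp1, Igfbp4, Igfbp5, Igfbp6 and Igfbp7 did not pass, with differences from -0.15 to 0.05. The growth factors Igf1 (0.09 ± 0.15 SE) and Igf2 (-0.18 ± 0.18) and the receptor Igf1r (0.13 ± 0.08) did not pass either.

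The other 7 genes had no relative or partner past the threshold. Beside Arhgef17, the exchange factor Arhgef10 differed by 0.40 ± 0.09 (SE, limma adjusted p 0.0901) and the GTPase gene Rhoc by 0.43 ± 0.11 (0.0978), with all DKO arrays above all controls for both. A second row of Arhgef10 differed by 0.13. Arhgef10l, also listed beside Arhgef17, differed by -0.18 ± 0.07 (SE, limma adjusted p 0.297), with every DKO array below every control. Rhoa differed by 0.02 ± 0.07 (SE, limma adjusted p 0.938) and Rhob by 0.13 ± 0.09 (0.569), with overlapping groups for both. Beside Crim1, Bmper, a secreted regulator of bone morphogenetic proteins, differed by 0.41 ± 0.10 (SE, limma adjusted p 0.0917), and Kcp, a relative with the same kind of cysteine-rich repeats, by -0.18 ± 0.08 (0.334). Beside Nt5e, Entpd1, the ectoenzyme that supplies AMP, differed by -0.23 ± 0.08 (SE, limma adjusted p 0.234), with every DKO array below every control, and the adenosine-degrading enzyme Ada by -0.04 ± 0.11 (0.889).

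Beside Ankrd1, its muscle relatives Ankrd2 and Ankrd23 differed by -0.19 ± 0.08 (SE, limma adjusted p 0.337) and -0.15 ± 0.11 (0.560). Beside Myof, the ferlin genes Dysf and Otof differed by -0.10 ± 0.14 (SE, limma adjusted p 0.785) and 0.0031 ± 0.07 (0.988). Beside Dock5, Dock3 differed by -0.16 ± 0.08 (SE, limma adjusted p 0.396) and Elmo3, whose family helps Dock proteins activate Rac, by -0.19 ± 0.09 (0.354). Beside Foxf2, Foxf1 differed by -0.08 ± 0.07 (SE, limma adjusted p 0.675) and Foxq1, another forkhead gene, by -0.15 ± 0.08 (0.452). A second row of Foxq1 differed by 0.08, the opposite sign.

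**Figure D4:**
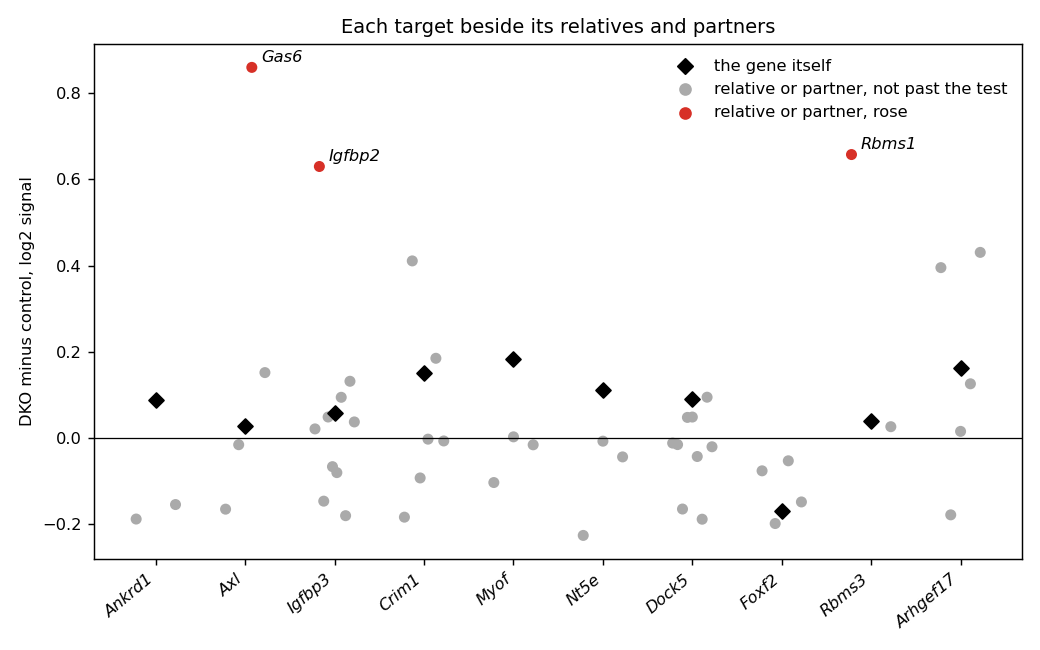
Difference between DKO and control in log2 signal (vertical axis) for each of the 10 genes (black diamonds) and for its relatives and partners with a row (circles, red where the gene rose by limma, grey where it did not pass or was too dim to test). Gas6, Rbms1 and Igfbp2 lie at 0.86, 0.66 and 0.63, above Axl, Rbms3 and Igfbp3 at 0.03, 0.04 and 0.06.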

How the data were processed

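The submitters' processing notes name RMA (robust multi-array average) for the deposited log2 signals. Its software and version and the probe build are not given in the sources used here. Because RMA gives the probe signals of all arrays 1 distribution, the log2 values of the authors cannot show a shift shared by every transcript. The row values made from those probe signals still differed slightly in their array medians (5.94 to 5.97). No scanner files or detection calls were used here. Of 41345 rows, 23521 had 1 gene symbol in the platform annotation, 1814 had several and 16010 are unnamed here. The one-symbol row with the highest mean over 6 arrays stood for a gene. Genes with a mean below the 25th percentile of these rows (5.02) were not tested, which left 16724.

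DKO was compared with control by limma 3.58.1 in R 4.3.3 (lmFit, eBayes, two-sided, no covariate), Benjamini-Hochberg adjusted over all tested genes. Scripts were tested on simulated data. Array correlations were 0.978 to 0.994, and no 2 arrays were alike in all values. The members and lists were chosen with earlier results of these data known. Named genes were the 10 genes, Lats1 and Lats2, the other signature genes, up to 6 called genes of each further list by smallest p, and each gene's called partners or else its 2 partners with the smallest p. Others, chosen after values were seen, give counts, families or markers their names. Alternatives covered the filter, normalization, variance trend, choice of row, replicate block and leaving out each array.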

Additional observations from a re-analysis of the deposited data

How the results depend on the processing

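The filter, variance trend, block and choice of row leave the differences of the 10 genes as they are by construction. Another normalization or the removal of 1 array could move them, and Axl, Foxf2 and Rbms3 changed sign when 1 array was left out, as given above. The median difference of the 10 genes was 0.11 with arrays centred on their medians and 0.10 with a repeated quantile normalization, and ran from 0.05 to 0.14 over the fits that left out 1 array. In those fits 122 to 260 genes rose and 11 to 55 fell over all genes, 6 to 7 rose and 0 fell among the other signature genes, 4 to 6 rose and 0 to 1 fell among regulators, and 1 to 3 rose and 0 fell among partners. Against 60 in the reported fit, 134 genes fell with a filter at the 50th percentile and 162 with a variance trend. The control and DKO arrays share replicate numbers that the labels tie to no litter or day. Deviations of same-numbered arrays correlated at -0.10, 0.21 and 0.15, so the numbers were not taken as pairs, and 3 of 6 arrays correlated best with their own number. With the replicate number as a block, 176 genes rose and 24 fell over all genes, 6 other signature genes, 6 regulators and 2 partners rose, and Nuak2, Igfbp2, Tead4 and Bmp6 lost their calls (adjusted p 0.0597, 0.0575, 0.0842 and 0.0980). Bmp6 also lost its call with dim genes kept (0.0507). The causes were not tested. Signals near the limit for dim genes bound what can be read from Ankrd1, Nt5e and Myof.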
